A study of Mus musculus with 12 samples.

Results

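The baseline expression of 2 mouse islet tumour lines was compared, with no GW8510 arrays in the comparison. The members are the 6 arrays of cells that received only the vehicle DMSO, 3 from αTC1 cells (aTC1 in the labels, called alpha cells) and 3 from βTC3 cells (bTC3, called beta cells), of 12 arrays in the series. They were chosen by their titles, and all 12171 genes that could be tested were compared. αTC1 is a glucagon-producing line and βTC3 an insulin-producing line. Each comes from tumours of transgenic mice in which the SV40 large T antigen was driven by a hormone gene promoter, that of preproglucagon for αTC1 and that of rat insulin for βTC3. The series also holds arrays of both lines with the small molecule GW8510, and the DMSO arrays are their controls. The paper asked what GW8510 does in αTC1 cells and human islets, and it does not mention βTC3. Every culture received 0.1% DMSO and was collected on day 5, after a medium change and fresh DMSO on day 3. No further treatment, genotype or strain separates the 2 groups in the labels, and no clone of αTC1 is named there. The labels give a growth protocol with low-glucose DMEM that speaks of αTC1 and is attached to the arrays of both lines. The medium of βTC3 is not given in the sources used here, so line and medium cannot be told apart. Each group is 3 biological replicates of 1 line, and the p-values therefore measure the spread between cultures of 1 line.

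Alpha and beta cells are neighbouring endocrine cells of the pancreatic islet. Alpha cells secrete glucagon, which raises blood glucose through glucose output from the liver, and beta cells secrete insulin, which lowers it. Both types share transcription factors such as Isl1, Neurod1, Nkx2-2 and Pax6. Irx1, Irx2 and Pou3f4 are known in alpha cells, and Pdx1, Nkx6-1, Mnx1 and Mafa in beta cells. Proglucagon and proinsulin are cut by prohormone convertases inside secretory granules before release. Beta cells take up glucose, phosphorylate and oxidise it, and the resulting ATP closes potassium channels, which opens calcium channels and releases the granules.

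The hormone genes are the first readout of what each line is. The window from 250 bases before to 50 bases after the transcription start is shown for 3 of them, Gcg (glucagon), Iapp (amylin, which beta cells release with insulin) and Sst (somatostatin), because their array values separated the lines. The sequences are from RefSeq on build GRCm38.p6 and run 5′ to 3′ on the strand of the gene. Gcg lies on the minus strand at chr2:62483604-62483903, Iapp on the plus strand at chr6:142298175-142298474 and Sst on the minus strand at chr16:23890795-23891094. The window of Ins2 was not analysed here. Capitals mark TAAT on either strand, the core that many homeodomain factors read, and TGACGTCA, the palindrome known as the cAMP response element.
Gcg: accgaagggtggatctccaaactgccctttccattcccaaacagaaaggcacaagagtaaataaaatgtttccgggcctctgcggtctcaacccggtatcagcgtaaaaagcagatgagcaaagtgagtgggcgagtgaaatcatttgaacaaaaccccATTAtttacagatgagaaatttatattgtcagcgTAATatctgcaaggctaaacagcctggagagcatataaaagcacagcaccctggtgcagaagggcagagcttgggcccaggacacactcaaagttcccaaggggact
Iapp: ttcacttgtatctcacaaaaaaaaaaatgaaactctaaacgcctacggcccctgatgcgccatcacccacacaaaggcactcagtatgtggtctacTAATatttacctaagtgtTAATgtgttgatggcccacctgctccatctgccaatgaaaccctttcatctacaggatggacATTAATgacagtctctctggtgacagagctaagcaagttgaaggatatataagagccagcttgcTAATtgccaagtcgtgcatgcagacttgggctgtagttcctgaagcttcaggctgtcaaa
Sst: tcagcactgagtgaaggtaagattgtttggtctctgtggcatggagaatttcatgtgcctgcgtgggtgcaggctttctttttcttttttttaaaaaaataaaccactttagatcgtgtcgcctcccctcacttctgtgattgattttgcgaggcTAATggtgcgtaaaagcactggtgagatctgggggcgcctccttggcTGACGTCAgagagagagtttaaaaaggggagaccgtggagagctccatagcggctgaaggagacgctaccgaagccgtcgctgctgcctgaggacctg
TAAT was found 2 times in the Gcg window, 5 times in the Iapp window, where one pair of matches overlaps, and 1 time in the Sst window. Of 32851 windows of this length, 58.0% hold TAAT on either strand, 6.86% hold 5 or more matches, and the median is 1. TGACGTCA was found once, in the Sst window, and 1.79% of all windows hold it. These matches describe letters in the windows and no binding was measured here.

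RNA was hybridized to Affymetrix GeneChip mouse arrays, where a probe set is a group of short probes for 1 transcript and the intensity is its brightness. The values are the authors' RMA intensities on a linear scale, bounded at 20 and 20000, and log2 was taken here. Where all 3 arrays of a line sit at a bound, the gene has only a limit in that line, so its difference is written as "at least". The 6 arrays had median intensities of 175 to 182, and Pearson correlations across probe sets were 0.9977 to 0.9985 within a line and 0.9302 to 0.9317 between the lines. Differences are alpha minus beta on the log2 scale with their standard error (SE) from limma, n = 3 arrays a line, and adjusted p-values are by Benjamini-Hochberg over all genes tested. A gene was called different where the adjusted p was under 0.05 and the difference was at least 2-fold.

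Of 12171 genes, 874 (7.18%) were called higher in alpha cells and 969 (7.96%) in beta cells, 1843 (15.1%) in all. Differences of at least 4-fold were found for 221 of the former and 290 of the latter, and differences of at least 16-fold for 44 and 58. In each of the 1843 called genes the 3 arrays of one line lay apart from the 3 of the other. Such separation was common, since 8049 genes (66.1%) showed it, and without the 2-fold threshold 4001 genes (32.9%) were higher in alpha cells and 3451 (28.4%) in beta cells, 61.2% of all genes. The 2-fold threshold was used for every count below unless another is named. Counts over gene lists are to be read beside the shares of all genes, 7.18% in alpha cells, 7.96% in beta cells and 15.1% in all. In bulk RNA, fewer cells that express a gene and less RNA per cell cannot be told apart. Among the called genes, 841 have another measured probe set, and in 766 of them (91.1%) all other probe sets differed in the same direction. In 357 of the 841 all other probe sets were also at least 2-fold apart, so many fold values below rest on 1 probe set, and other probe sets are given where they were clearly smaller.

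**Figure D1:**
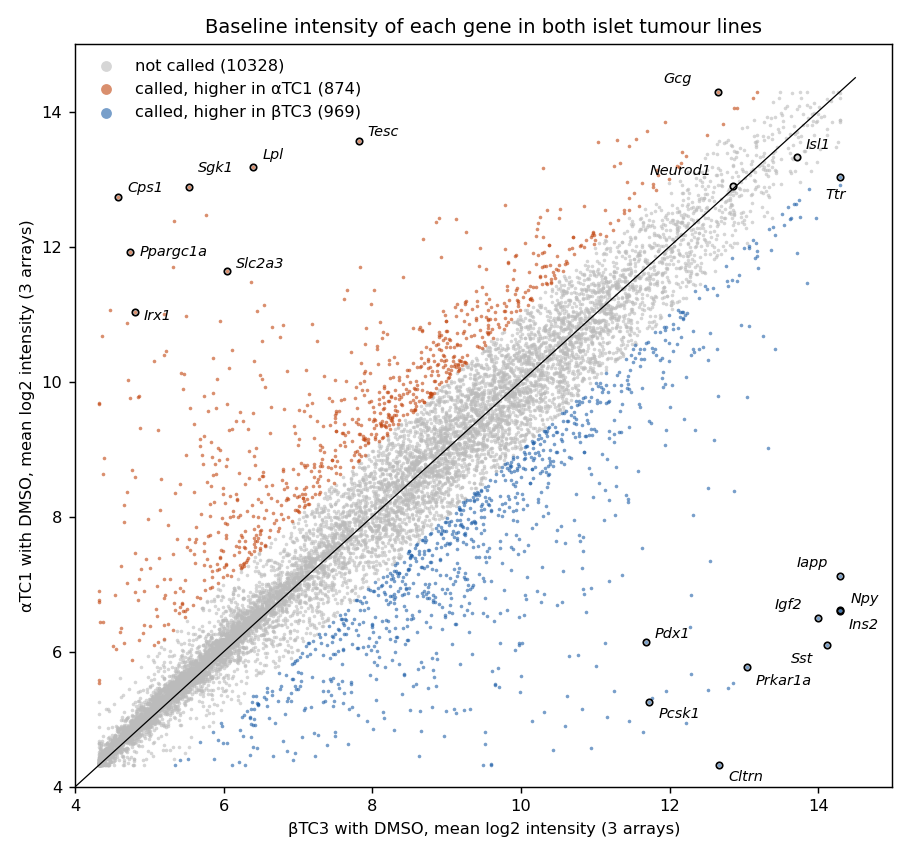
Mean log2 intensity of each of 12171 genes in βTC3 cells (horizontal axis) and αTC1 cells (vertical axis), 3 DMSO arrays each. Red points are the 874 genes called higher in alpha cells and blue points the 969 called higher in beta cells, and circles mark named genes. The diagonal is equal intensity, and Isl1 and Neurod1 lie near it while Ins2, Iapp and Npy lie at the upper bound of the beta axis.

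Glucagon and insulin mRNA separated the lines in opposite directions. Each difference is a lower limit, because the brighter line was at the upper bound, so their sizes cannot be compared. Gcg was at the upper bound of 20000 on all 3 alpha arrays and read 6647, 6616 and 5997 on the beta arrays. It was thus at least 3.12-fold higher in alpha cells (log2 difference 1.64, SE 0.06, adjusted p = 7.0e-08), with a high signal in the beta line as well. Ins2 read 98.8, 96.5 and 95.2 in alpha cells and 20000 on every beta array, at least 207-fold higher in beta cells (log2 difference -7.69, SE 0.05, adjusted p = 1.9e-11). The probe set of Ins2 carries the suffix that marks probes shared with similar transcripts.

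The beta line also carried the transcripts of hormones of other islet and gut cells. Sst, the hormone of delta cells, read 73.5, 76.3 and 57.3 in alpha cells and 18296, 17084 and 18078 in beta cells (log2 difference -8.02, SE 0.10, adjusted p = 6.0e-10), a 260-fold difference. Iapp was at 20000 on all beta arrays and at 131 to 148 in alpha cells, at least 143-fold apart, and 3 further probe sets of it differed by log2 -9.39 to -5.78. Npy, a neuropeptide also found in islets, read 125, 90.5 and 84.0 in alpha cells and 20000 on all beta arrays, at least 204-fold apart. The groups did not overlap in any of these genes, as in all 1843 called genes and 66.1% of all genes. Gast (gastrin) was 60.2-fold higher in beta cells, at 4541 to 5410 against 71.3 to 96.1, and Sct (secretin) 17.1-fold, at 2958 to 3318 against 166 to 232. Of the 14 measured markers of delta, PP and gut endocrine cells, Sst, Gast and Sct were called higher in beta cells and Rbp4 in alpha cells. Together this was 28.57% of the list, against 15.1% of all genes. The summed intensity of the 14 was 27426 to 29938 in beta cells and 12638 to 13372 in alpha cells. The alpha sum was mostly Rbp4, with a mean of 12247, which is also a protein usually secreted by the liver. Under 100 were 12 of the 14 in alpha cells and 10 in beta cells. Ppy, the hormone of PP cells, and Pyy (peptide YY) were at 42.7 to 67.8 on all 6 arrays and were not called (log2 differences -0.14 and -0.01, adjusted p = 0.22 and 0.93).

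Fewer peptide genes were higher in alpha cells. Cartpt, the precursor of the CART peptide, read 703, 744 and 842 in alpha cells and 148, 126 and 133 in beta cells (log2 difference 2.49, SE 0.09). Adm (adrenomedullin, a vasodilator) was 5.06-fold and Ddc, the enzyme that makes dopamine and serotonin from their amino acid precursors, 2.21-fold higher. Of the 37 measured hormone and peptide genes, 4 were called higher in alpha cells and 10 in beta cells, 37.84% against 15.1% of all genes. The median difference was -0.06 against 0.05 over all genes. The remaining calls in beta cells were Nucb2 (nucleobindin, -2.74), Nmb (neuromedin B, -2.91), Nxph1 (-2.16) and Rln1 (relaxin, -1.23).

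**Figure D2:**
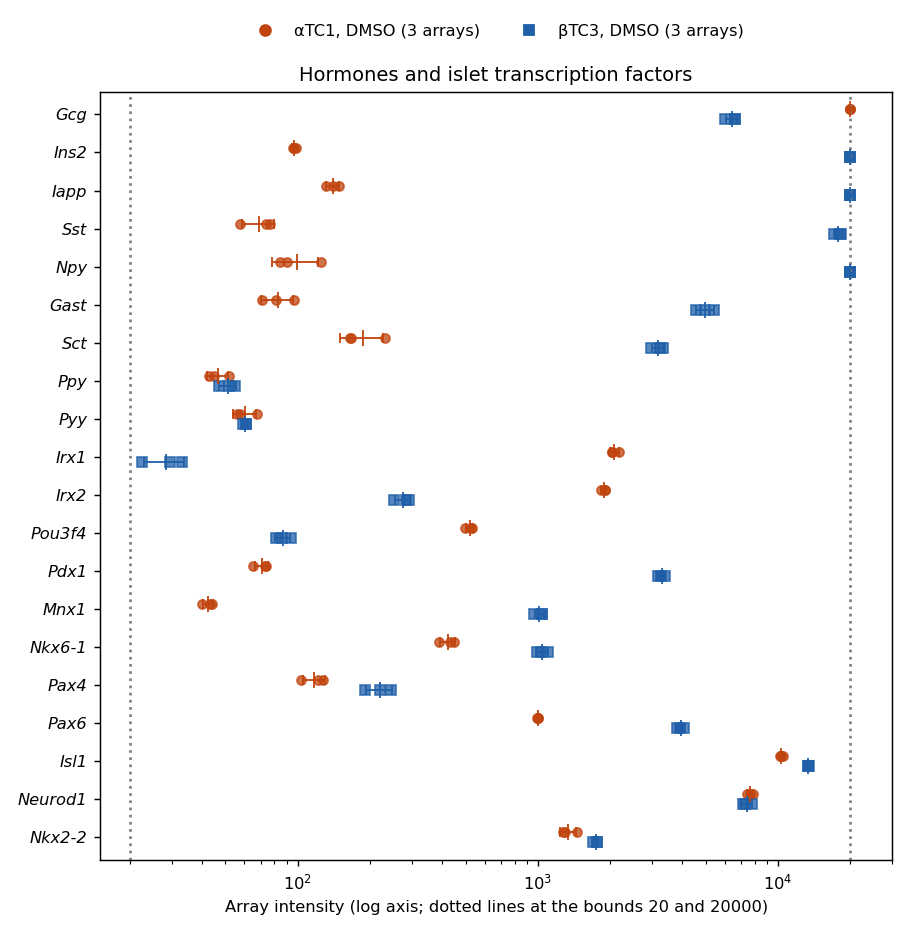
Array intensity (log axis) of 9 hormone or peptide genes and 11 islet transcription factor genes on each of 3 αTC1 arrays (circles) and 3 βTC3 arrays (squares), with bars for the mean and SD, and dotted lines at the bounds 20 and 20000. Gcg sits on the upper bound in alpha cells, Ins2, Iapp and Npy in beta cells, and Isl1, Neurod1 and Nkx2-2 are within 2-fold between the lines.

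Transcription factors known from one lineage differed between the lines by varying amounts. Irx1 read 2184, 2040 and 2029 in alpha cells and 32.9, 22.4 and 29.3 in beta cells (log2 difference 6.22, SE 0.13, adjusted p = 4.8e-09). Its relative Irx2 was 6.86-fold higher in alpha cells, at 1828 to 1913 against 252 to 290, and Pou3f4, a regulator of the glucagon gene, was higher by log2 2.59, at 498 to 533 against 81.0 to 93.4. No alpha array of these 3 genes overlapped a beta array, which held for every called gene and for 66.1% of all genes. Pdx1, which regulates the insulin gene and pancreas formation, read 73.1, 74.0 and 65.4 in alpha cells and 3244, 3403 and 3181 in beta cells, 46.3-fold apart (log2 difference -5.53, SE 0.06, adjusted p = 3.9e-10), and its second probe set differed by -2.91. Mnx1, a homeodomain factor of beta cell development, was 24.0-fold higher in beta cells. Nkx6-1, which acts with Pdx1 in beta cells, differed by 2.47-fold and remained at 389 to 446 in alpha cells. Pax4, known from beta cell specification, differed by -0.90 (adjusted p = 1.2e-04), under the 2-fold threshold. Mafa was not analysed here.

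Of the factors that both cell types use, Neurod1, Isl1 and Nkx2-2 were within 2-fold between the lines and Pax6 was not. Neurod1 read 7908, 7668 and 7419 in alpha cells and 7260, 7817 and 7128 in beta cells, and its ranges overlapped (log2 difference 0.05, SE 0.06, adjusted p = 0.46). Isl1 at 10173 to 10477 against 13345 to 13517, and Nkx2-2 at 1272 to 1456 against 1696 to 1771, were both 1.30-fold higher in beta cells. Pax6, a paired box factor of all islet cells, differed more, at 990 to 1006 in alpha cells and 3813 to 4066 in beta cells (log2 difference -1.98, SE 0.05). Its 4 other probe sets ranged from -2.15 to 0.01, so the difference was not shared by all of them.

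In all, 47 islet transcription factor genes were measured, of which 10 were called higher in alpha cells and 11 in beta cells. These calls were 44.68% of the list, against 15.1% of all genes, and the median difference was 0.03. Meis1, a homeodomain partner of Hox and Pbx proteins, was 9.53-fold higher in alpha cells, and the orphan nuclear receptors Nr2f1 and Nr2f2 were higher there by log2 2.65 and 2.14. For Nr2f1, 1 beta array was at the lower bound. Hes1, a repressor downstream of Notch, was also higher in alpha cells (2.56). In beta cells Insm1, a zinc finger factor of endocrine differentiation, was 7.43-fold higher, at 2886 to 3164 against 384 to 427, and Id4, an inhibitor of basic helix-loop-helix factors, was 14.8-fold higher. Hnf4a, a nuclear receptor of liver and islet, was 4.12-fold higher in beta cells in the probe set used, while its 3 others ranged from -2.25 to -0.09. Among 28 measured Hox genes, 1 was called (3.571%, against 15.1% of all genes). It was Hoxb13, at 381 to 406 in alpha cells and 55.7 to 63.5 in beta cells. A further 3 Hox genes were at a bound on all 6 arrays and were not tested.

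Lists of cell type markers followed the names of the lines in part, and they were chosen with earlier results of these data known. Of 15 measured beta cell markers, 14 were called higher in beta cells and 0 in alpha cells by limma (0 also at an unadjusted p under 0.05), and the median difference was -4.16. The remaining one, Pax4, was lower in alpha cells under the 2-fold threshold. Cltrn (collectrin), a beta cell membrane protein, was at the lower bound of 20 on all alpha arrays and read 6693, 6433 and 6377 in beta cells, at least 325-fold apart (log2 difference -8.34, SE 0.05, adjusted p = 1.9e-11). Ppp1r1a, a phosphatase inhibitor, Ero1b, which forms disulphide bonds in proinsulin (2 other probe sets -5.00 and -0.42), and Ovol2, a zinc finger factor, were higher in beta cells by log2 -5.20, -4.10 and -4.16 (alpha minus beta). Of 8 measured alpha cell markers, 5 were called higher in alpha cells (Gcg, Irx1, Irx2, Pou3f4 and the arginine transporter Slc7a2) and 2 in beta cells. These 2 were Ttr (transthyretin), at 20000 on all beta arrays and 7864 to 8884 in alpha cells, and Smarca1, a chromatin remodeller, which was 2.27-fold apart. The last marker, the amino acid carrier Slc38a5, was also higher in beta cells (adjusted p under 0.05 by limma), under the 2-fold threshold.

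**Figure D3:**
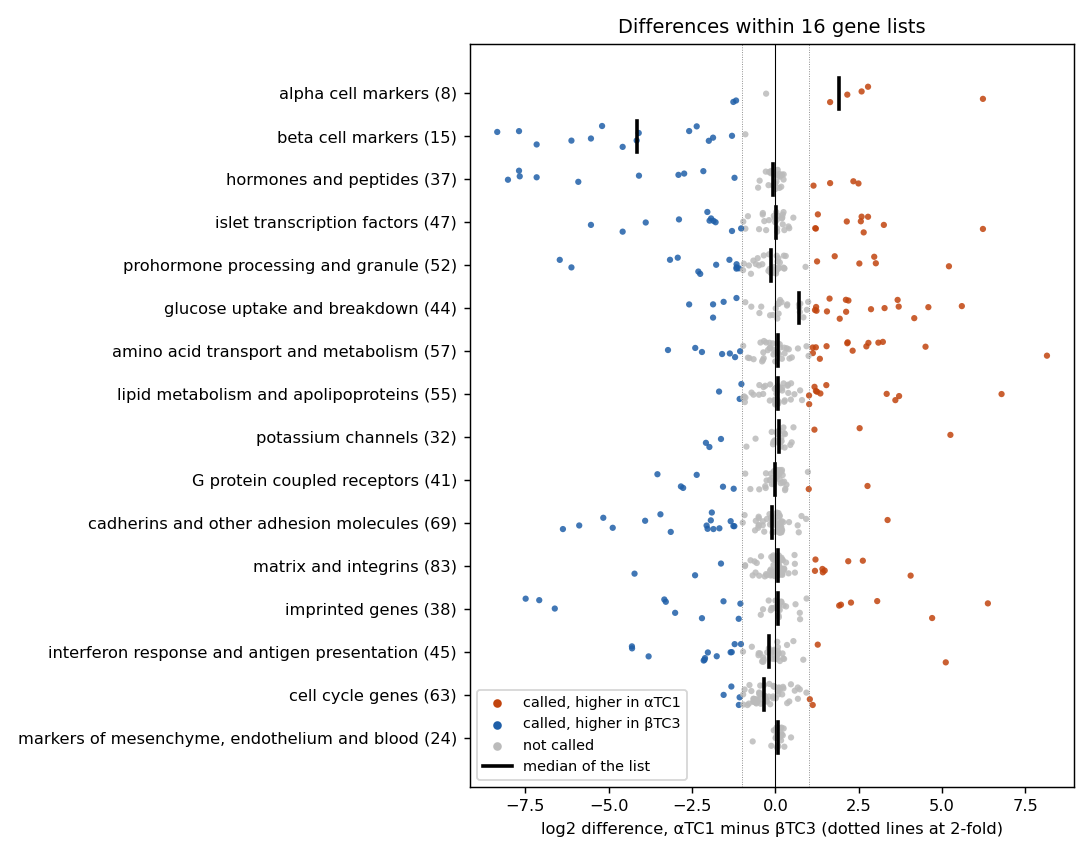
Log2 difference, αTC1 minus βTC3, of every measured member of 16 gene lists (number of measured members in brackets), with red and blue points for members called higher in alpha or beta cells, grey points for members not called, and a black bar for the median. The median of the beta cell markers is -4.16 and that of the alpha cell markers 1.90, and no marker of mesenchyme, endothelium and blood was called.

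The machinery that cuts and stores prohormones also differed. Pcsk1, the convertase that cuts proinsulin, read 33.1, 42.1 and 40.4 in alpha cells and 3512, 3179 and 3514 in beta cells, 88.6-fold apart (log2 difference -6.47, SE 0.09, adjusted p = 1.0e-09). Pcsk2, the convertase that makes glucagon, was not analysed here. Of 52 measured genes of prohormone processing and granules, 6 were called higher in alpha cells and 12 in beta cells. This was 34.62% of the list, against 15.1% of all genes, with a median difference of -0.14. The granule proteins Scg3 (7.62-fold) and Chgb (20000 on all beta arrays against 7401 to 7865, at least 2.60-fold) and the calcium sensor Scgn (secretagogin, 8.95-fold) were higher in beta cells. Chga, a further chromogranin, differed by -0.95, just under the threshold.

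Release proteins showed different family members in the 2 lines. Sytl2, a synaptotagmin-like granule protein, read 1350, 1277 and 1436 in alpha cells and 35.4, 37.6 and 37.0 in beta cells, 36.9-fold apart. Its relative Sytl4 (granuphilin), a granule protein of beta cells, read 27.2, 28.5 and 45.8 in alpha cells and 2412, 2288 and 2159 in beta cells, 69.5-fold the other way, although its second probe set differed by only -0.49. The groups lay apart for both genes, as for every called gene and 66.1% of all genes. Rab27b, a small GTPase that binds these proteins on granules, was 8.07-fold higher in alpha cells, as were Rab3c (5.73-fold, with 1 of 2 other probe sets near 0) and Cplx1 (complexin, a clamp of the fusion complex, 7.80-fold, 2 others 1.26 and 2.80). Vamp8 (log2 difference -2.31), Stx3 (-2.26, others -0.47 and -0.38) and Snap23 (-1.78, others -1.14 and -0.97), membrane fusion proteins, were higher in beta cells. The core neuronal fusion proteins Snap25 and Vamp2, named after their values were seen, differed by -0.03 and 0.07.

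Genes of glucose uptake and breakdown were called higher in alpha cells more often than in beta cells, with 16 against 5 of 44 measured members. The list also holds genes of gluconeogenesis, glycogen and lactate transport. Of its members 47.73% were called, against 15.1% of all genes, and its median difference was 0.71, where the median over all genes was 0.05. The glucose transporters differed by member. Slc2a1 read 5385, 5232 and 5030 in alpha cells and 1140, 1218 and 1257 in beta cells (log2 difference 2.11, SE 0.06). Slc2a3 was 48.2-fold higher in alpha cells, at 3057 to 3399 against 57.6 to 71.9, and its 3 other probe sets ranged from 0.33 to 4.76. Slc2a2, the transporter known in mouse beta cells, was the other way round, with 24.6, 23.4 and 23.8 in alpha cells and 91.6, 88.7 and 82.3 in beta cells (log2 difference -1.87, SE 0.06, adjusted p = 3.5e-08). Its intensity was under 100 in both lines.

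The enzymes after uptake followed the same division. Hk2, a high-affinity hexokinase, was 24.1-fold higher in alpha cells, at 1969 to 2203 against 59.7, 93.6 and 120, so the beta cultures differed among themselves. Hk1 read 2926, 2943 and 2911 in alpha cells and 922, 903 and 1028 in beta cells. Pfkp (2.19), Aldoa (1.19), Pgam1 (1.23) and Eno2 (3.27), enzymes of glycolysis, were higher in alpha cells on the log2 scale. Ldha, which makes lactate, read 9170, 9451 and 8930 in alpha cells and 1113, 1105 and 1619 in beta cells (log2 difference 2.87), and the lactate carrier Slc16a1 was higher in alpha cells by log2 3.70. Slc16a3, another monocarboxylate carrier, was 2.25-fold higher in beta cells. G6pc2, the islet glucose-6-phosphatase, read 1700, 1612 and 1577 in alpha cells and 9547, 10494 and 9356 in beta cells, 6.01-fold apart.

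Both glycogen synthase genes were called, in opposite directions. Gys1, the muscle-type glycogen synthase, read 1089, 1071 and 927 in alpha cells and 230, 205 and 279 in beta cells. Gys2, the liver-type synthase, was 3.66-fold higher in beta cells, at 1282 to 1388 against 342 to 389, and Pygl, the liver-type phosphorylase, was 2.93-fold higher there. The other phosphorylases were not called (Pygb 0.35, Pygm 0.01). Ppp1r3c, which brings a phosphatase to glycogen, was 17.9-fold higher in alpha cells (second probe set 1.25), and Stbd1, a starch-binding protein linked to glycogen, was 71.9-fold higher, at 2167, 1956 and 1556 against 30.2 or less. Fbp1, an enzyme of gluconeogenesis, was 12.7-fold higher in alpha cells, and Ppargc1a (PGC-1α), a coactivator of mitochondrial and gluconeogenic genes, read 3866, 4017 and 3734 against 28.9, 27.8 and 23.9 (log2 difference 7.18, SE 0.08, adjusted p = 3.2e-10). All 4 other probe sets of Ppargc1a differed by 5.64 to 6.17.

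**Figure D4:**
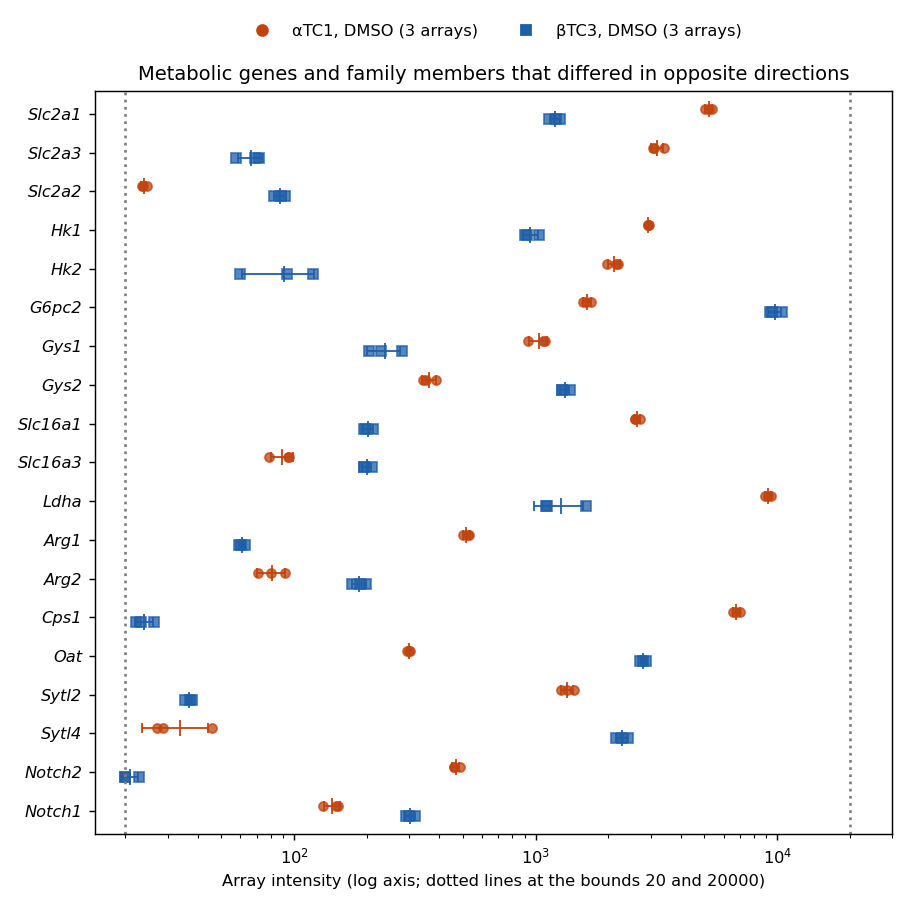
Array intensity (log axis) of 19 genes, mostly of sugar, lactate and urea metabolism, on each of 3 αTC1 arrays (circles) and 3 βTC3 arrays (squares), with bars for the mean and SD and dotted lines at the bounds. Slc2a1 and Slc2a3 are higher in alpha cells and Slc2a2 in beta cells, and Gys1 and Gys2, Slc16a1 and Slc16a3, Arg1 and Arg2, Sytl2 and Sytl4, and Notch2 and Notch1 differ in opposite directions; these pairs were set side by side after their values were seen.

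Amino acid enzymes were called in both directions. Cps1, the mitochondrial carbamoyl phosphate synthase that starts the urea cycle, read 7032, 6734 and 6586 in alpha cells and 22.3, 26.4 and 23.4 in beta cells, 283-fold apart (log2 difference 8.15, SE 0.07, adjusted p = 1.6e-10). The beta values lay close to the lower bound of 20. Arg1, the cytosolic arginase of the same cycle, was 8.51-fold higher in alpha cells, while the mitochondrial arginase Arg2 was higher in beta cells, at 174 to 198 against 70.7 to 92.2. Tat, which breaks down tyrosine, was 22.7-fold, and Fah, the last enzyme of that pathway, 9.34-fold higher in alpha cells. Hal (histidine breakdown, 2.32), Cth (cysteine synthesis, 2.73), Phgdh (serine synthesis, 2.17) and the aminotransferase Got2 (1.53) were also higher in alpha cells on the log2 scale. In beta cells Oat, which links ornithine and proline, was 9.33-fold higher, at 2717 to 2854 against 294 to 302, Gatm, the first enzyme of creatine synthesis, was 4.61-fold higher, and Glud1, the glutamate dehydrogenase, differed by -1.06. Amino acid carriers divided as well, with Slc38a1 (6.92-fold) and Slc7a2 (4.46-fold) higher in alpha cells and Slc7a3 (5.29-fold) and Slc7a8 (3.03-fold) higher in beta cells. The taurine carrier Slc6a6 was 2.58-fold higher in beta cells in the probe set used, but its 2 others differed by 0.07 and 0.10. Over the list, 14 of 57 were called higher in alpha cells and 7 in beta cells, 36.84% together against 15.1% of all genes. The median difference was 0.07.

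Lipid genes were called in alpha cells more often, 11 against 3 of 55, while the list's median of 0.09 lay near that of all genes. Together 25.45% of the list was called, against 15.1% of all genes. Lpl (lipoprotein lipase) read 8683, 9921 and 9342 in alpha cells and 82.3, 81.2 and 90.1 in beta cells, 110-fold apart (log2 difference 6.78, SE 0.07). Mttp, which loads lipid onto lipoproteins, was 13.1-fold, Elovl6, a fatty acid elongase, 12.1-fold, and Cpt1a, which brings fatty acids into mitochondria, 10.1-fold higher in alpha cells. The 3 genes higher in beta cells were Fdft1 (squalene synthase, 3.23-fold), Acly (ATP citrate lyase, 2.10-fold, others -1.15 and -0.89) and Ehhadh, which was at the lower bound in alpha cells and at 38.1 to 42.4 in beta cells. For Fdft1 the 3 other probe sets ranged from -1.56 to 0.17.

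Proteins usually secreted by the liver were present in both directions, with 5 of 29 higher in alpha cells and 4 in beta cells. The share called was 31.03%, against 15.1% of all genes. Apof, an apolipoprotein, was 14.8-fold higher in alpha cells, at 1192 to 1350 against 83.5 to 87.2. Rbp4, the retinol carrier, was 4.86-fold higher in alpha cells, at 11856 to 12525 against 2391 to 2671, whereas Ttr, its partner in plasma, was at least 2.40-fold higher in beta cells. Serpina10, a protease inhibitor, was 7.29-fold higher in beta cells.

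The subunit genes of the ATP-sensitive potassium channel, which acts in glucose-stimulated release, differed modestly. Kcnj11, the pore of the ATP-sensitive potassium channel, read 175, 179 and 193 in alpha cells and 114, 131 and 131 in beta cells (log2 difference 0.54, SE 0.07, adjusted p = 2.4e-04). Abcc8, its sulphonylurea receptor, was 1.83-fold higher in beta cells, at 2935 to 3122 against 1608 to 1706 (adjusted p = 1.4e-06). Neither reached 2-fold. Of 32 measured potassium channel genes, 3 were called in each direction, 18.75% together against 15.1% of all genes. Kcnk2, a background channel of the TREK type, read 1304, 1273 and 1223 in alpha cells and 31.6, 40.6 and 28.7 in beta cells (38.0-fold). Kcnk3, of the TASK type, was 5.76-fold higher in alpha cells (others 0.60 and 0.83). Kcnmb2, a subunit of calcium-activated channels, was 4.24-fold, Kcnip1, a subunit of A-type channels, 3.94-fold (3 others from -3.09 to 0.35) and Kcnd2, the pore of such channels, 3.10-fold higher in beta cells. Among 31 calcium and sodium channel genes, 2 were called higher in alpha cells and 6 in beta cells, 25.81% together against 15.1% of all genes. Calcium channel subunits went both ways, with Cacna2d3 (log2 difference 1.57) higher in alpha cells and Cacna2d2 (-1.52, others 0.01 and 0.04) and Cacnb2 (-1.34) higher in beta cells. Cacnb2 was at the lower bound on 1 alpha array. Trpm5, a calcium-activated cation channel of taste and beta cells, was 3.99-fold and Atp2a3, an endoplasmic reticulum calcium pump, 3.89-fold higher in beta cells, with their second probe sets at -0.61 and -0.59. The sodium-calcium exchanger Slc8a1 was 6.78-fold higher in beta cells by the probe set used, but its 2 others differed by -0.05 and 0.03.

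Among receptors, the incretin receptor was higher in the beta line. Glp1r, the receptor for glucagon-like peptide, read 33.6, 46.0 and 35.1 in alpha cells and 190, 198 and 196 in beta cells, 5.14-fold apart (log2 difference -2.36, SE 0.11, adjusted p = 3.9e-07). Gcgr, the glucagon receptor, read 150, 150 and 165 in alpha cells and 149, 159 and 172 in beta cells, and these ranges overlapped (log2 difference -0.04, SE 0.07, adjusted p = 0.62). F2r (thrombin receptor, 7.13-fold), P2ry1 (ADP receptor, 6.81-fold), Drd2 (dopamine receptor, 2.97-fold) and Sstr5 (somatostatin receptor, log2 difference -1.25) were also higher in beta cells. Galr1, a galanin receptor, was 11.6-fold higher there, but its second probe set differed by only -0.11. P2ry14, a receptor for UDP-glucose, was 6.79-fold higher in alpha cells. In all, 2 of 41 receptor genes were called higher in alpha cells and 6 in beta cells, 19.51% together against 15.1% of all genes. Of 35 genes of transmitter receptors and transporters, 11.43% were called, against 15.1% of all genes. By limma 0 were called higher in alpha cells (7 at an unadjusted p under 0.05, all of them under 2-fold) and 4 in beta cells. These were Slc1a1 (glutamate uptake, 4.85-fold, others -2.39 and -0.63), Th (tyrosine hydroxylase, 3.36-fold, at 1216 to 1385 against 383 to 398), Gad2 (GABA synthesis, 2.29-fold) and Gria2 (an AMPA receptor subunit, 2.28-fold, second probe set -0.32).

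Of 69 measured cadherins and other adhesion molecules, 16 were called higher in beta cells (7.96% of all genes were), 1 in alpha cells and 52 in neither, and the median was -0.10. Cd24a, a small surface glycoprotein, read 24.6, 20.4 and 26.8 in alpha cells and 2057, 1834 and 2035 in beta cells, 82.9-fold apart, and its other probe sets differed by -5.03 and -4.50. Cdh11, a cadherin, was at the lower bound on all alpha arrays and at 750, 719 and 682 in beta cells, at least 35.8-fold apart. Epha7, an ephrin receptor, was 59.1-fold higher in beta cells with a wide spread there (1388, 1665 and 1129) and 2 other probe sets at -1.85 and -1.53, while Pcdh8 (a protocadherin) was 29.4-fold higher, and Ctnnd2 (δ-catenin) read 1702 to 1977 there against 114 to 131. On 1 alpha array Epha7 was at the lower bound. Nrcam (-3.45) and Cdh8 (-3.14) were further members higher in beta cells. The 1 gene higher in alpha cells was Cdh13, at 513 to 547 against 48.1 to 57.7 (10.3-fold), whose 2 other probe sets differed by 0.07 and 1.32. Cdh1 (E-cadherin) was at 20 on all alpha arrays and at 20.8 to 22.2 in beta cells (adjusted p = 0.075), so its probe set gave no usable level here. Ncam1 differed by -0.50 (adjusted p = 8.7e-05), from 1358 to 1491 in alpha cells and 1950 to 2098 in beta cells.

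Matrix genes and integrins were called in alpha cells 8 times and in beta cells 3 times among 83. Together this was 13.25% of the list, under the 15.1% of all genes. Sdc4 (syndecan, a heparan sulphate proteoglycan) was 16.6-fold higher in alpha cells, although the beta cultures differed among themselves (27.7, 57.4 and 64.9), and Thbs1 (thrombospondin) was 6.16-fold higher. Itgav (αv integrin) read 5698, 5595 and 5379 in alpha cells and 1263, 1198 and 1206 in beta cells, with 2 other probe sets at 0.55 and 1.76, and its partner Itgb5 was 2.68-fold higher in alpha cells. Gpc4 (a glypican) was 18.7-fold, Spock1 (testican) 5.31-fold and Lama2 (a laminin chain) 3.10-fold higher in beta cells. Among 58 genes of tight junctions, keratins and epithelium, 3 were called higher in alpha cells and 5 in beta cells, 13.79% together against 15.1% of all genes. Tm4sf4, a tetraspan protein of islets and liver, was 17.6-fold higher in beta cells, at 2158 to 2472 against 99.1, 148 and 159, and Cldn1 (claudin, 12.3-fold) was also higher there, although its 2 other probe sets differed by -1.48 and -0.06.

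Both lines carried genes known from neurons, in differing members. Dcx (doublecortin, a microtubule protein of migrating neurons) read 37.8, 32.2 and 36.7 in alpha cells and 1808, 1785 and 1845 in beta cells, 51.1-fold apart, with its 3 other probe sets at -5.47 to -0.53. Stmn3 (a stathmin, 9.62-fold), Tubb2a (a β-tubulin, 7.34-fold, second probe set -0.50) and Basp1 (a growth cone protein, 6.35-fold) were higher in beta cells. Rit2 (a neuronal GTPase, 4.55-fold, others 0.10 and 1.71), Ncan (neurocan, 3.87-fold, second probe set 0.20) and Gng3 (a G protein subunit, 3.38-fold) were higher in alpha cells. Over 59 measured members, 11 were called in alpha cells and 10 in beta cells, 35.59% together against 15.1% of all genes. The median was 0.09.

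Both insulin-like growth factor genes differed, in opposite directions. Igf1 read 708, 588 and 598 in alpha cells and 69.1, 74.8 and 63.1 in beta cells (log2 difference 3.19, SE 0.09). Igf2 read 90.7, 108 and 76.1 in alpha cells and 16544, 15412 and 16978 in beta cells, 180-fold apart (log2 difference -7.49, SE 0.12, adjusted p = 1.2e-09), and its second probe set differed by -3.77. Neither gene had overlapping arrays, nor did any other called gene, and 66.1% of all genes had none. Irs2, an adaptor of the insulin and IGF receptors, was 3.01-fold and Vegfc, a growth factor of lymph vessels, 5.04-fold higher in alpha cells. In beta cells both Kitl (stem cell factor) and its receptor Kit were higher, Kitl at 866, 960 and 553 against 20, 20 and 20.8 and Kit at 857 to 948 against 297 to 329. The 3 other probe sets of Kitl ranged from -2.64 to -0.39, and the second of Kit differed by -0.82. Ngfr, the p75 neurotrophin receptor, was 6.31-fold higher in beta cells (others -1.36 and -0.52), and 3 intracellular fibroblast growth factor homologues that bind sodium channels, Fgf12 (-2.31), Fgf13 (-1.75) and Fgf14 (-1.84), were lower in alpha cells, the second probe sets of Fgf13 and Fgf14 being at -0.04 and -0.13. The list of 66 had 6 members called in alpha cells and 10 in beta cells, 24.24% together against 15.1% of all genes.

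Among 89 genes of TGF-β, Wnt, Notch and Hedgehog signalling, 9 were called higher in alpha cells and 7 in beta cells. Together this was 17.98% of the list, near the 15.1% of all genes. Notch genes were called in both directions, with Notch2 at 486, 459 and 458 against 20, 20 and 22.8 in beta cells (22.4-fold higher in alpha cells, although its second probe set differed by 0.17), Hey1, a target of Notch, 8.33-fold higher in alpha cells, and the ligand Dll1 higher there by log2 1.33. Notch1 (-1.07, second probe set -0.48) and Lfng (fringe, which modifies Notch receptors, -1.32, second probe set -0.31) were higher in beta cells. Wnt4, a secreted ligand, read 5471, 5285 and 5782 in alpha cells and 504, 456 and 472 in beta cells (11.6-fold), and its class of receptors differed by member, Fzd6 being 10.1-fold higher in alpha cells (second probe set 0.80) and Fzd8 3.35-fold and Fzd3 2.72-fold higher in beta cells (3 others of Fzd3 from -2.45 to -0.50). Frzb, a secreted Wnt antagonist, was 6.70-fold higher in beta cells (second probe set -0.92), and Bmp7, a secreted ligand of the TGF-β family, was higher in alpha cells by log2 1.81.

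Imprinted genes, of which only one parental copy is normally active, had 16 of 38 measured members called (6 in alpha cells, 10 in beta cells), 42.1% against 15.1% of all genes, with a median of 0.09. The list was chosen with earlier results of these data known, so its share is a description and no test of an excess. Rian and Meg3, neighbouring noncoding RNAs transcribed from the maternal chromosome, were higher in beta cells. Rian read 48.1, 43.3 and 38.5 against 5894, 5915 and 5751 (136-fold, others -5.60 and -2.23) and Meg3 read 161, 186 and 197 against 1940, 1579 and 1968 (10.1-fold, with 4 other probe sets at -3.66 to -0.58). Dlk1, the protein-coding gene of the same domain, was at 29.6 to 35.5 on all 6 arrays. Nnat (neuronatin), an endoplasmic reticulum protein of brain and islet, was 98.2-fold higher in beta cells, at 4743 to 5185 against 39.5, 67.6 and 49.4. Grb10, an inhibitor of insulin receptor signalling, read 3307, 3437 and 3217 in alpha cells and 37.3, 33.5 and 51.4 in beta cells (82.9-fold), while its other probe sets differed by 1.00 and 1.25. Mest was 26.0-fold and Sgce (a sarcoglycan) 8.30-fold higher in alpha cells, whereas Asb4, of the same domain as Sgce, was 9.77-fold higher in beta cells. In the Peg3 domain, Peg3 (-1.05) and Usp29 (-1.10) were higher in beta cells and Zim1 (1.91) in alpha cells.

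Several genes of class I antigen presentation were called higher in beta cells. B2m, the light chain of class I molecules, read 282, 246 and 252 in alpha cells and 5215, 4990 and 5144 in beta cells, 19.7-fold apart (log2 difference -4.30, SE 0.06, adjusted p = 1.0e-09), and its second probe set differed by -4.65. The class I heavy chains H2-D1 (19.8-fold) and H2-K1 (4.37-fold), the loading factor Tapbp (4.44-fold, second probe set -0.98) and the immunoproteasome subunits Psmb8 (log2 difference -3.80) and Psmb9 (log2 difference -1.76) were called in the same direction. Intensities of H2 genes are uncertain because their copies are closely similar, and the 8 other probe sets of H2-D1 ranged from -4.51 to 0.03 and the 3 of H2-K1 from -3.95 to -0.99. The peptide transporter Tap1 differed by -0.36 and Tap2 by -0.97, under the threshold. Of 45 measured genes of interferon response and antigen presentation, 12 were called higher in beta cells and 2 in alpha cells. This was 31.11% of the list, against 15.1% of all genes, and the median was -0.20. The 2 higher in alpha cells were Ifitm2, an interferon-induced membrane protein, at 2790, 2706 and 3103 against 90.4, 77.4 and 81.2 (34.5-fold), and Ifih1, an RNA sensor (2.41-fold).

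The lines also differed in genes of the sex chromosomes. The Y-linked genes Eif2s3y, Kdm5d and Uty were at 20, the lower bound, throughout the beta arrays and at 787 to 838, 115 to 127 and 93.3 to 134 on the alpha arrays, although the second probe set of Kdm5d differed by -0.05. Xist, the noncoding RNA of the inactive X chromosome, read 85.5, 106 and 103 in alpha cells and 929, 791 and 991 in beta cells (9.19-fold), and Kdm6a, an X-linked gene that escapes inactivation, was 3.15-fold higher in beta cells. The labels give no sex of the source animals, and the part of sex in the other differences was not tested.

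**Figure D5:**
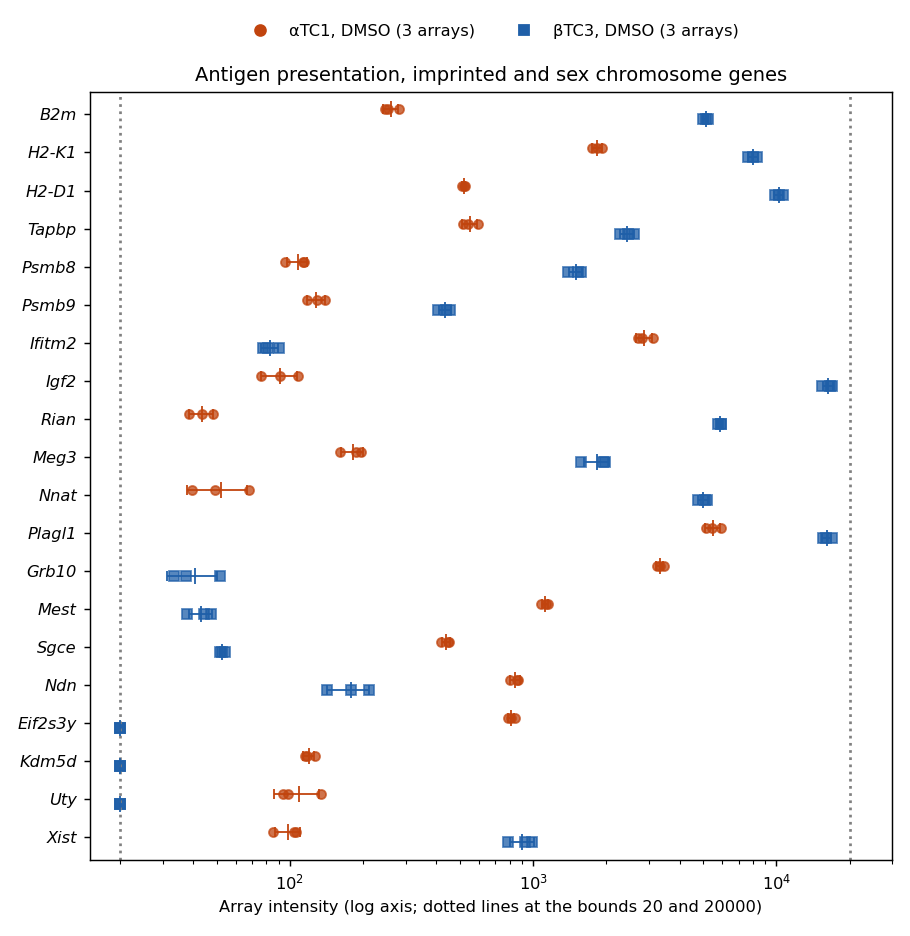
Array intensity (log axis) of 7 genes of antigen presentation or interferon response, 9 imprinted genes and 4 sex chromosome genes on each of 3 αTC1 arrays (circles) and 3 βTC3 arrays (squares), with bars for the mean and SD and dotted lines at the bounds. B2m, H2-D1, Igf2, Rian, Nnat and Xist are higher in beta cells, and Ifitm2, Grb10, Mest and the Y-linked genes, which sit at 20 in beta cells, are higher in alpha cells.

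Few cell cycle genes were called at the 2-fold threshold, 9.52% against 15.1% of all genes. Of 63 measured, 2 were called higher in alpha cells (Ccnd1, cyclin D1, 2.05-fold, and the replication factor Mcm3, 2.17-fold, with 4 other probe sets from 0.41 to 1.34) and 4 in beta cells (Ccnd3, cyclin D3, 2.94-fold; the inhibitor Cdkn2c, 2.50-fold; and the pocket proteins Rb1, 2.14-fold, and Rbl1, 2.10-fold). The call of Ccnd1 was lost without alpha replicate 2 (0.96), beta replicate 1 (0.93) or beta replicate 2 (0.97). At adjusted p alone, 38 of the 63 were higher in beta cells and 14 in alpha cells, where 28.4% and 32.9% of all genes were. The median difference was -0.33, against 0.05 over all genes. Mki67, a marker of proliferating cells, read 4100, 3780 and 3942 in alpha cells and 6910, 6460 and 7186 in beta cells, under the 2-fold threshold. Among 14 housekeeping genes, 1 was called (7.143%, against 15.1% of all genes), the lysosomal enzyme Gusb, which was 3.07-fold higher in beta cells.

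Several of the largest differences fell outside these lists. Sgk1, a kinase induced by serum and glucocorticoids, read 7871, 7780 and 7069 in alpha cells and 50.9, 53.2 and 36.4 in beta cells (164-fold). Selenbp1, a selenium-binding protein, was 132-fold, and Cald1 (caldesmon, which binds actin) 105-fold higher in alpha cells. The cohesin subunit Stag2 read 2339, 2136 and 1956 against 20.5 to 23.2, and its second probe set differed by 3.71. Also higher in alpha cells were Enpep (aminopeptidase A, 79.5-fold, at the bound on 2 beta arrays), Morc1 (a germ cell protein, 55.5-fold), Tesc (tescalcin, a calcium-binding protein, 53.4-fold) and Slc6a13 (a GABA and taurine carrier, 44.8-fold).

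In beta cells Prkar1a, a regulatory subunit of protein kinase A, read 8152, 8475 and 8590 against 59.3, 49.0 and 56.6 in alpha cells (153-fold), and its second probe set differed by -8.56. Cdhr1, a cadherin-related protein of photoreceptors, and Rnase4, a secreted ribonuclease, were each 161-fold higher in beta cells, Rps4l, a ribosomal protein gene copy, 155-fold, and Gnai1, an inhibitory G protein subunit, 114-fold (others -4.71 and -3.26). For Rps4l, signal from similar ribosomal protein genes could be mixed in. Cpn1 (carboxypeptidase N, 92.9-fold) and Papss2 (sulphate activation, 89.2-fold) completed the 15 largest by the probe sets used, whose order is not known where a bound limits them, and the 3 other probe sets of Papss2 ranged from -4.41 to -0.16.

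Markers of other cell types were also checked. Of 24 measured markers of mesenchyme, endothelium and blood, 0 were called in either direction by limma (at an unadjusted p under 0.05, 6 were higher in alpha cells and 1 in beta cells), 18 were under 100 in each line, and the list's summed intensity was 1619 to 1660 in alpha cells and 1499 to 1708 in beta cells. Of 21 exocrine pancreas markers, 9.52% were called, against 15.1% of all genes. The 2 called were higher in alpha cells, Cela1 (an elastase, 428 to 447 against 52.6 to 72.8) and Krt7 (a duct keratin, 828 to 887 against 186 to 203). The sum of the exocrine list was 2638 to 2715 in alpha cells and 1495 to 1675 in beta cells. Their part in the other differences was not tested.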

How the data were processed

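RNA of 3 αTC1 and 3 βTC3 cultures with DMSO was read on Affymetrix GeneChip mouse arrays. The authors deposited 1 table of 22690 probe sets for 12 arrays as linear intensity values, and the submitters' processing notes name RMA without a version. The values lie between 20 and 20000, bounds that no source used here explains. Genes were named from the platform annotation. Of the probe sets, 64 were controls, 20380 had 1 symbol, 691 had several and 1555 had none here. Where a gene had several probe sets, the brightest one by mean log2 over the 6 arrays was taken, and 222 genes at a bound on every one of these arrays were not tested. Log2 values of the 6 arrays were fitted with limma 3.58.1 in R 4.3.3 (line as group, empirical Bayes with 3.84 prior and 4 residual degrees of freedom), and the method was tested on simulated data. The median SE was 0.06, which the number of arrays limits, and no detection calls were used, so how much of a low intensity is background is not known.

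The paper names no test for the arrays. Members and gene lists were chosen with earlier results of these data known. Genes are named by a rule: islet anchors, the 15 largest differences each way, and up to 5 of the largest called members of each list and direction. Other named members were chosen after their values were seen. Alternatives were the normalization, the probe set of a gene, filters, the pseudocount, the arrays in the fit, the spread estimate, a replicate block, the fold threshold and each array left out.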

Additional observations from a re-analysis of the deposited data

How the results depend on the processing

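Requiring no fold change gave 4001 genes higher in alpha cells and 3451 in beta cells, and requiring 4-fold gave 221 and 290, by construction of the threshold. Under the other alternatives that kept all 6 arrays, the counts were 758 to 912 in alpha cells and 801 to 969 in beta cells, and with each array left out in turn they were 867 to 894 and 952 to 992. Of 206 named genes, 6 gained a call with no fold threshold and 65 lost theirs at 4-fold. Under the other alternatives, 182 kept their call and sign in every run that held them. Genes left out of a run counted as unchanged there. Gcg, Ins2 and Cltrn, for example, were not in the run with probe sets of unique design or the run without genes at a bound. The sign reversed for 4 genes. For Slc6a6 it was 0.10 with probe sets of unique design only. The other 3 were uncalled genes near 0, namely Neurod1 (-0.00043 with the mean of all probe sets), Pyy (0.012 with median centred arrays, and -0.096 to 0.046 with an array left out) and Gcgr (-0.091 to 0.0090 with an array left out); the cause was not tested. Calls were lost for Galr1, Hnf4a, Meg3, Sytl4, Tubb2a, Anxa2 and Gria2 with probe sets of unique design only, for Kdm5d (0.84), Acly, Fdft1, Fgf14, Slc8a1, Lfng, Erbb3, Cacna2d2, Anxa2, Gria2, Npy1r and Slc6a6 with the mean of all probe sets, for Npy1r with a further quantile normalization, for Ehhadh with median centred arrays, and for Cacnb2, Ccnd1, Ehhadh, Gad2 and Npy1r with a pseudocount of 16. Leaving out 1 array ended the call for Ccnd1 (0.93 without beta replicate 1, 0.96 without alpha replicate 2, 0.97 without beta replicate 2), Ehhadh (-0.99 without beta replicate 1) and Npy1r (0.95 without alpha replicate 1 or beta replicate 1, 0.99 without alpha replicate 3). Of 280 counts over gene lists, 12 moved by over 1.5 times, among them the alpha cell markers higher in beta cells, which fell to 0 with probe sets of unique design, since that setting leaves out the probe sets of Ttr and Smarca1. The replicate numbers did not pair the arrays (correlations of deviations between same-numbered arrays 0.0019, 0.016 and 0.062), and with the replicate block 874 and 969 genes were called, the same 1843 genes. The bounds of 20 and 20000 limit every difference that touches them, and intensities near 20 may be background.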
